A study of Mus musculus with 12 samples.

Results

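The genes described here are the receptor Trem2, 5 genes tied to its signal (Tyrobp, Syk, Plcg2, Inpp5d and Cd33) and the microglial activation markers Aif1 and Cd68. They were chosen by name, 8 of the 50563 genes in a count table of mouse cerebral cortex, and all 8 passed the filter on low counts that left 15688 genes for testing. RNA-Seq was performed on the cortex of 12 aged E4FAD mice, with 1 library per mouse. All mice had the genotype APOE4+/+, 5FAD-/+. In it human APOE4 takes the place of the mouse Apoe gene and the familial Alzheimer's disease transgenes are driven by the neuronal Thy1 promoter. CTRL and DPAn-6 mice thus shared 1 genotype, and the amyloid load of each mouse is not in the data used here. The 7 CTRL mice received vehicle with antioxidants by daily oral gavage and the 5 DPAn-6 mice received n-6 docosapentaenoic acid, a metabolite of linoleic acid, by the same route. By the study's account the DPAn-6 mice were given the antioxidants too. By the labels, 2 CTRL and 2 DPAn-6 mice were 12 months old and 5 CTRL and 3 DPAn-6 mice were 14 months old. The study states that each group held females and males, but sex is not labelled mouse by mouse. Every comparison below is within this 1 strain, with no mice free of the transgenes.

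TREM2 is a surface receptor of microglia that binds lipids, lipoproteins and amyloid. It has no signalling tail of its own and pairs with the adaptor TYROBP (also named DAP12), whose phosphorylated motif recruits the kinase SYK. SYK acts through PLCG2, which splits a membrane phosphoinositide to release calcium. The phosphatase INPP5D (SHIP1) and the human sialic acid receptor CD33 are known to hold this chain back. Whether mouse Cd33 does so was not tested here. Variants of TREM2, PLCG2, INPP5D and CD33 are associated with the risk of Alzheimer's disease in humans. Aif1 encodes Iba1, the usual stain for microglia, and Cd68 encodes a lysosomal protein that is raised in phagocytic microglia.

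The libraries held 15339098 to 19500154 counts in CTRL mice and 15208803 to 26520251 in DPAn-6 mice. The library of CTRL replicate 3 stood apart. The SD of its smooth trend of expression on merged exon length and GC content was 0.351 on the log2 scale, against 0.0168 to 0.136 in the other 11 libraries. The deviations of its genes from the mean of the libraries had a Pearson r of −0.57 with GC content, across genes that are not independent replicates. The labelled tissue is whole cortex and no cell type was sorted. Microglial RNA was detected in it, with 14 of 14 homeostatic microglia genes passing the filter. Only 1 of 8 monocyte and neutrophil genes and 1 of 8 T and B cell genes passed it. In whole cortex, fewer microglia and less RNA of these genes per microglial cell cannot be told apart, and this holds for every difference below.

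All 8 genes had a lower mean in DPAn-6 than in CTRL mice, while 51.3% of all genes tested had a log2 fold change below 0. Their median log2 fold change was −0.39, against −0.0047 over all genes tested. By edgeR's quasi-likelihood test with Benjamini-Hochberg adjustment over all 15688 genes, 1 of 8 fell (Inpp5d), where 1.14% of all genes were called lower. At an unadjusted p below 0.05, 6 of 8 were lower, where 9.02% of all genes were. An exact permutation test of log2 CPM (two-sided, smallest possible p 0.00126) passed 0.05 in 5 of 8 (Trem2, Syk, Plcg2, Inpp5d and Cd68), all lower in DPAn-6 mice, where 7.15% of all genes passed it in that direction. Tyrobp, Cd33 and Aif1 did not pass it.

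**Figure D1:**
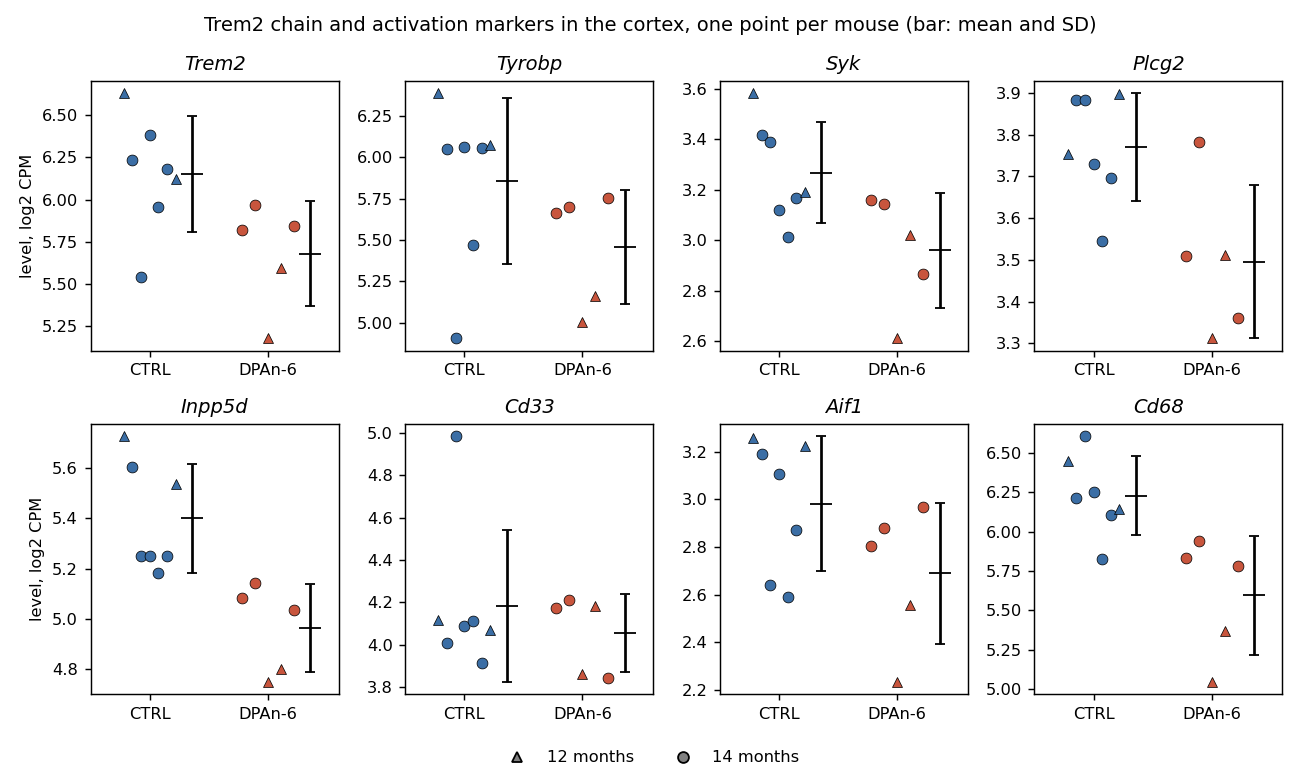
Level of each of the 8 genes in every mouse, in log2 CPM on an axis that does not start at 0, with 7 CTRL mice in blue and 5 DPAn-6 mice in red, 12-month mice as triangles, 14-month mice as circles, and the mean with SD beside each group. The groups do not overlap in Inpp5d, and the lowest DPAn-6 mouse is a 12-month mouse in all genes but Cd33.

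RefSeq start sites were found for 7 of the 8 genes (GRCm38.p6, the files' build) and the 250 bases before each start were searched on both strands for 2 motifs that are read in macrophages. Because PU.1, the lineage factor of microglia, binds a core of letters GAGGAA, the sequences of 4 genes that hold this core are shown, in lower case with the core in capitals (TTCCTC where it lies on the opposite strand). The first 3 hold it within 40 bases of the start, and Cd68, the gene with the lowest fold change, holds it 225 bases before the start.
Trem2, chr17:48346151-48346400, plus strand: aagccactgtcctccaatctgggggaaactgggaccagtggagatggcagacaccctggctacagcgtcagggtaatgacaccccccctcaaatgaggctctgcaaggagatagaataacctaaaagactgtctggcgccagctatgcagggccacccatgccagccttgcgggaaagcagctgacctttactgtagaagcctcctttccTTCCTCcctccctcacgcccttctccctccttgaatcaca
Inpp5d, chr1:87620062-87620311, plus strand: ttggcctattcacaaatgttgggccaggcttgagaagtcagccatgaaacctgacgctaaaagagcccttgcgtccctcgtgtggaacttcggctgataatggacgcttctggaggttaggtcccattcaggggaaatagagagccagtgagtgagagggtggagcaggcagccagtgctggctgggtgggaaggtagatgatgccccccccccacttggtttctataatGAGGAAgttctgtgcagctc
Aif1, chr17:35176053-35176302, minus strand: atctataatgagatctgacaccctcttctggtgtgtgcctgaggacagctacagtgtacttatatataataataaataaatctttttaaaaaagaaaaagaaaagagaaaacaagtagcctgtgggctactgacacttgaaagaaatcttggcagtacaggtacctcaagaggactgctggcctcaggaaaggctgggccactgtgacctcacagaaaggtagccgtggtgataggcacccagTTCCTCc
Cd68, chr11:69666171-69666420, minus strand: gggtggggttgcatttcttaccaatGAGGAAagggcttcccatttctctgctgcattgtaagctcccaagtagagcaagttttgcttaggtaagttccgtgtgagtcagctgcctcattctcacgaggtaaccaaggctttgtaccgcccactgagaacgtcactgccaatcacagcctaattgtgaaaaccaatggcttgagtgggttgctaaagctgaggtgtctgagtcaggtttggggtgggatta
The core began 40 bases before the start in Trem2, 20 in Inpp5d and 7 in Aif1. It was also found in Cd33, 226 bases before the start, and at the second of the start sites listed for Syk, 9 bases before it. Over both strands it was present in 23.1% of 27025 promoters of the same length. Plcg2 and the first Syk start held none. Plcg2 held instead the palindrome CACGTG, a core read by the Mitf family of lysosomal regulators, 20 bases before its start (6.05% of promoters). These are matches of letters, and no binding was measured.

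Trem2 (ENSMUSG00000023992; chromosome 17, 48346401 to 48354147, plus strand) was covered by 712 to 1693 counts per mouse. Its level in the 7 CTRL mice was 5.54 at the lowest, 6.18 at the median and 6.63 log2 CPM at the highest, with a mean of 6.15 ± 0.34 (SD, n = 7). In DPAn-6 replicates 1 to 5 it was 5.82, 5.97, 5.18, 5.59 and 5.84, with a mean of 5.68 ± 0.31 (SD, n = 5). All 5 DPAn-6 mice lay below the CTRL mean, and the groups overlapped through CTRL replicate 3 (5.54) and CTRL replicate 5 (5.96). Its log2 fold change was −0.50 (standard error 0.16), or −29.4%, at an unadjusted p of 0.00675 and an adjusted p of 0.142 by edgeR and a two-sided exact permutation p of 0.0379. Without CTRL replicate 3 the log2 fold change was −0.58 and the adjusted p was 0.0142.

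Tyrobp, the adaptor (ENSMUSG00000030579; chromosome 7, 30413760 to 30417585, plus strand), had 459 to 1432 counts per mouse. The CTRL mice ranged from 4.90 through a median of 6.06 to 6.39 log2 CPM (mean 5.86 ± 0.50, SD, n = 7). The DPAn-6 mice had 5.66, 5.70, 5.01, 5.16 and 5.76 (mean 5.46 ± 0.35, SD, n = 5). The lowest mouse of all was CTRL replicate 3, followed by DPAn-6 replicates 3 and 4, while 5 of 7 CTRL mice were above every DPAn-6 mouse. The log2 fold change of −0.46 (standard error 0.21) had an unadjusted p of 0.0420 and an adjusted p of 0.319 by edgeR, and the exact permutation p was 0.157. Without CTRL replicate 3 it was −0.57 with an adjusted p of 0.0316. Over the 26 alternatives, receptor and adaptor passed the adjusted threshold without this library and by limma-voom with sample weights (adjusted p = 0.0112 for Trem2 and 0.0274 for Tyrobp), and under none of the others.

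Syk, the kinase (ENSMUSG00000021457, chromosome 13, 52583173 to 52648792, plus strand), was the member with the lowest level per length of merged exons. With 121 to 204 counts per mouse, it had 3.01, 3.19 and 3.58 log2 CPM at the lowest, median and highest CTRL mouse (mean 3.27 ± 0.20, SD, n = 7). DPAn-6 replicates 1 to 5 had 3.16, 3.14, 2.61, 3.02 and 2.87 (mean 2.96 ± 0.23, SD, n = 5). Both groups overlapped between 3.01 and 3.16, and DPAn-6 replicate 3 was the lowest mouse. On the log2 scale DPAn-6 minus CTRL was −0.33 (standard error 0.13) at an unadjusted p of 0.0198, an adjusted p of 0.234 by edgeR and an exact permutation p of 0.0328. The unadjusted p by edgeR lay above 0.05 in 6 of 26 alternatives. It was 0.0688 without DPAn-6 replicate 3, 0.0525 without DPAn-6 replicate 5, 0.0572 with the length and GC trend removed, 0.0555 with that trend removed and replicate number as a block, 0.0621 with Ttr as covariate and 0.231 in 14-month mice.

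Plcg2, the phospholipase (ENSMUSG00000034330; chromosome 8, 117498291 to 117635142, plus strand), had the narrowest spread of the 8 genes in CTRL mice. They ranged from 3.54 through 3.75 to 3.90 log2 CPM (mean 3.77 ± 0.13, SD, n = 7), from 173 to 272 counts over all mice. The DPAn-6 mice had 3.51, 3.78, 3.31, 3.51 and 3.36 (mean 3.50 ± 0.18, SD, n = 5). DPAn-6 replicate 2 lay at the CTRL mean and the other 4 lay below every CTRL mouse. This gave a log2 fold change of −0.30 (standard error 0.10) at an unadjusted p of 0.0112 and an adjusted p of 0.178 by edgeR, and an exact permutation p of 0.0189. An annotated miRNA gene lies within the Plcg2 span on the other strand with 0 counts in every mouse, and no member shares exon bases with another annotated gene.

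Inpp5d, the inositol phosphatase that removes the lipid made by phosphoinositide 3-kinase (ENSMUSG00000026288; chromosome 1, 87620312 to 87720507, plus strand), was the 1 member that fell at the adjusted threshold. It had 424 to 903 counts per mouse, and CTRL mice ranged from 5.18 through 5.25 to 5.72 log2 CPM (mean 5.40 ± 0.22, SD, n = 7). The DPAn-6 mice had 5.08, 5.14, 4.75, 4.80 and 5.04 (mean 4.96 ± 0.18, SD, n = 5). Every DPAn-6 mouse was below every CTRL mouse, as in 1.49% of all genes tested, with CTRL replicate 5 (5.18) and DPAn-6 replicate 2 (5.14) next to each other. Inpp5d changed by −0.47 on the log2 scale (standard error 0.11), or −27.6%, at an adjusted p of 0.0484 by edgeR's quasi-likelihood test and an exact permutation p of 0.00505. The call lay close to the threshold, and the adjusted p was below 0.05 in 8 of 26 alternatives, where it ranged from 0.00406 to 0.572. It passed without CTRL replicate 3 (0.0131) or 5 (0.0490), and leaving out any other mouse in turn gave adjusted p-values from 0.0571 (CTRL replicate 6) to 0.168 (DPAn-6 replicate 3), as in CTRL replicates 1 (0.0869), 2 (0.0881), 4 (0.0602) and 7 (0.0793) and DPAn-6 replicates 1 (0.0960), 2 (0.0671), 4 (0.155) and 5 (0.104).

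Cd33, a Siglec of myeloid cells (ENSMUSG00000004609; chromosome 7, 43524216 to 43544428, minus strand), was the member with the smallest difference, from 251 to 485 counts per mouse. Its CTRL levels ran from 3.91 through 4.09 to 4.98 log2 CPM (mean 4.19 ± 0.36, SD, n = 7) and its DPAn-6 levels were 4.18, 4.21, 3.86, 4.18 and 3.84 (mean 4.06 ± 0.19, SD, n = 5). The groups overlapped almost in full, and CTRL replicate 3 (4.98) alone lay above the rest, with the next CTRL mouse at 4.12. The log2 fold change of −0.19 (standard error 0.17) had an unadjusted p of 0.285 by edgeR and an exact permutation p of 0.621, and it was −0.0094 (unadjusted p = 0.913 by edgeR) without CTRL replicate 3. The difference in mean log2 CPM was then 0.0036, of opposite sign. Cd33 is also the member whose transcript has the lowest GC content, 41.3% against 51.0% to 54.8% in the other 7, and with the trend on length and GC removed its level in CTRL replicate 3 was 4.48. Whether that trend accounts for the high value was not tested.

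Aif1 (ENSMUSG00000024397; chromosome 17, 35170991 to 35176068, minus strand) had the fewest counts, 89 to 207 per mouse. The CTRL mice ranged from 2.59 through 3.11 to 3.26 log2 CPM (mean 2.98 ± 0.28, SD, n = 7) and the DPAn-6 mice had 2.80, 2.88, 2.23, 2.56 and 2.97 (mean 2.69 ± 0.30, SD, n = 5). CTRL replicates 3 (2.64), 5 (2.59) and 6 (2.87) lay among the DPAn-6 mice, and the other 4 CTRL mice were above all of them. The log2 fold change of −0.31 (standard error 0.15) did not pass an unadjusted threshold by edgeR (p = 0.0591, adjusted p = 0.367), nor by the exact permutation test (p = 0.106).

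Cd68 (ENSMUSG00000018774; chromosome 11, 69664213 to 69666153, minus strand) differed most. From 628 to 1495 counts per mouse, CTRL mice had 5.83, 6.21 and 6.60 log2 CPM at the lowest, median and highest (mean 6.23 ± 0.25, SD, n = 7). The DPAn-6 mice had 5.84, 5.94, 5.05, 5.37 and 5.78 (mean 5.59 ± 0.38, SD, n = 5). The overlap came from CTRL replicate 5 (5.83), and 6 of 7 CTRL mice were above every DPAn-6 mouse. Cd68 had a log2 fold change of −0.64 (standard error 0.16), or −35.9%, at an unadjusted p of 0.00100, an adjusted p of 0.0575 by edgeR and an exact permutation p of 0.00379. It was the 1 member with an unadjusted p below 0.05 in 26 of 26 alternatives, and its adjusted p was below 0.05 in 7 of them, among these without CTRL replicate 3 (0.0220) and without CTRL replicate 5 (0.0490).

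**Figure D2:**
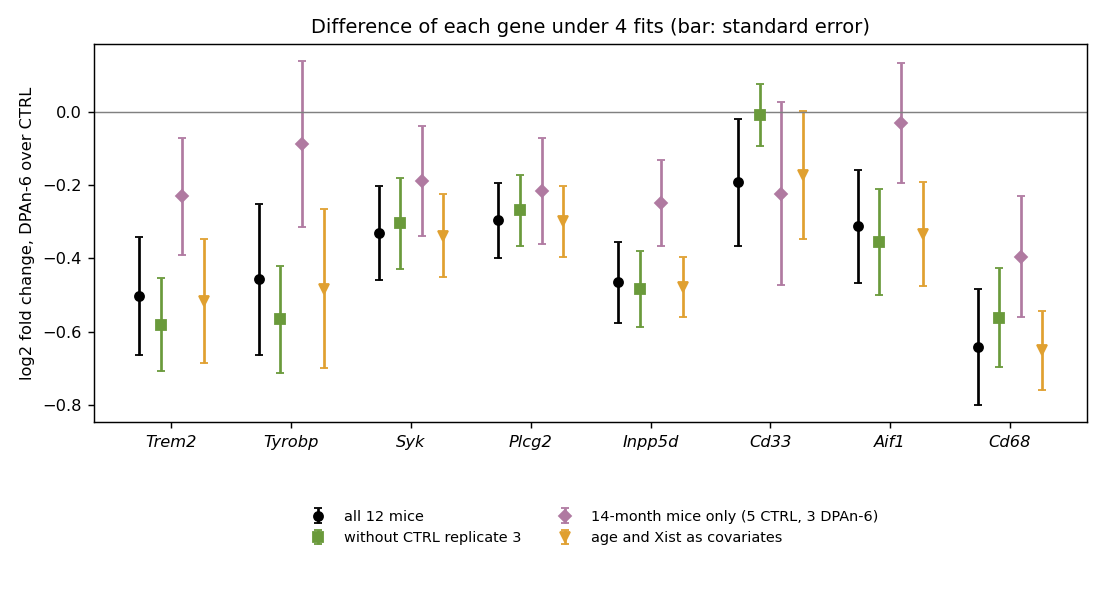
Log2 fold change of each gene, DPAn-6 over CTRL, with its standard error, in all 12 mice, without CTRL replicate 3, in 14-month mice only (5 CTRL, 3 DPAn-6) and with age and Xist as covariates. All points lie below 0, and the 14-month values of Tyrobp (−0.09) and Aif1 (−0.03) lie nearest to it together with Cd33 without CTRL replicate 3 (−0.0094).

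Per length of merged exons, the adaptor had the highest level of the 8 genes. In CTRL mice Tyrobp stood at 91.1 ± 26.6 RPKM (SD, n = 7), followed by Cd68 at 60.4 ± 10.5, Trem2 at 14.7 ± 3.33, Inpp5d at 5.60 ± 0.863, Aif1 at 5.22 ± 0.977, Plcg2 at 3.18 ± 0.278, Cd33 at 2.41 ± 0.739 and Syk at 1.03 ± 0.146. RPKM here is the count per kilobase of merged exons, scaled to the library total. That length joins all annotated exons of a gene and ran from 667 bases in Tyrobp to 9362 in Syk. It is not the length of the transcripts present, so the order is not one of transcript abundance. Neighbours in this order overlapped in CTRL mice for Tyrobp and Cd68, Inpp5d and Aif1, and Plcg2 and Cd33, and the other neighbours did not overlap. Inpp5d and Aif1 changed places between mice, with Inpp5d higher in 7 of 12. In DPAn-6 mice Tyrobp was at 67.3 ± 15.2 RPKM (SD, n = 5) and Syk at 0.837 ± 0.126, so the ends of the order were the same.

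To see whether the genes differed beyond microglial genes as a whole, each level was set against the mean log2 CPM of 14 homeostatic microglia markers in the same mouse. Of these markers, 12 had a log2 fold change below 0 and 2 above 0, and 4 fell by the adjusted test, among them Tmem119 (log2 fold change −0.77, adjusted p = 0.0286 by edgeR). Cd68 minus this mean was 0.86 ± 0.19 (SD, n = 7) in vehicle mice and 0.52 ± 0.31 (SD, n = 5) after DPAn-6, a difference of −0.34 with a two-sided exact permutation p of 0.0265. The other 7 genes had differences from −0.18 (Trem2, p = 0.304) to 0.17 (Cd33, p = 0.410) by the same exact permutation test. The Cd68 value depended on the reference: it was −0.12 (exact permutation p = 0.322) with the median of the markers in place of their mean, −0.18 (p = 0.126) against 16 disease-associated microglia genes, and −0.12 (p = 0.518) in 14-month mice. It also passed 0.05 no longer without CTRL replicate 1 (p = 0.0584), 4 (0.0606) or 6 (0.0541) or without DPAn-6 replicate 3 (0.0939) or 4 (0.0788), by the same exact permutation test.

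The difference between the groups was larger in the 12-month than in the 14-month mice for 7 of the 8 genes. The share of all genes with this order was not computed, and each 12-month mean rests on 2 mice. In Tyrobp the mean difference in log2 CPM was −1.15 at 12 months, where the 2 CTRL mice had 6.08 and 6.39 and the 2 DPAn-6 mice 5.01 and 5.16, and −0.0045 at 14 months. Aif1 differed by −0.85 at 12 months and by 0.0050 at 14 months. For Trem2 the differences were −0.99 and −0.18, for Inpp5d −0.85 and −0.22, for Cd68 −1.09 and −0.35, for Syk −0.57 and −0.16, and for Plcg2 −0.41 and −0.20. Cd33 differed by −0.070 and −0.15.

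The interaction of group and age was tested by edgeR over all genes. Its unadjusted p was 0.0211 for Trem2, 0.0114 for Tyrobp, 0.00609 for Inpp5d, 0.00974 for Aif1 and 0.0236 for Cd68, with an adjusted p of 0.905 in each. That made 5 of 8 genes under an unadjusted 0.05, where 4.26% of all genes were, and 0 of 8 under an adjusted 0.05, where 0.00637% of all genes were. Without CTRL replicate 1 or without DPAn-6 replicate 3, both 12-month mice, the count of 5 was 2. Age was not the only measure that set these mice apart. Xist, the RNA of the silenced X chromosome, stood at 9.65 and 9.42 log2 CPM in both 12-month CTRL mice. In both 12-month DPAn-6 mice it was at 2.07 and 1.48. At 12 months, treatment and Xist level, and sex as read from it, therefore cannot be told apart. At 14 months it was high in all 3 DPAn-6 mice (9.18, 9.60 and 9.15) and in CTRL replicates 2 (9.63) and 3 (10.6), and low in CTRL replicates 4 (1.56), 5 (1.58) and 6 (0.46). Among DPAn-6 mice age and Xist level coincide in full and cannot be told apart. With Xist added to the model, 3 of 8 interactions had an unadjusted p below 0.05 by edgeR (lowest adjusted p = 0.240), where 17.7% of all genes did. The terms were 1.12 for Trem2 and 1.53 for Tyrobp on the log2 scale, and −0.99, of opposite sign, for Cd33. Within a group and age, Xist varied widely only among the 14-month CTRL mice. The adjustment for Xist thus rested mainly on those mice, CTRL replicate 3 included. In the 14-month mice alone, 1 of 8 genes passed an unadjusted threshold of 0.05 by edgeR, where 5.36% of all genes tested passed it as lower. This was Cd68, with a log2 fold change of −0.40 (unadjusted p = 0.0356 and adjusted p = 0.506 by edgeR). By the exact permutation test, whose smallest p there is 0.0179, it was 0 of 8, where 3.45% of all genes passed it as lower.

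**Figure D3:**
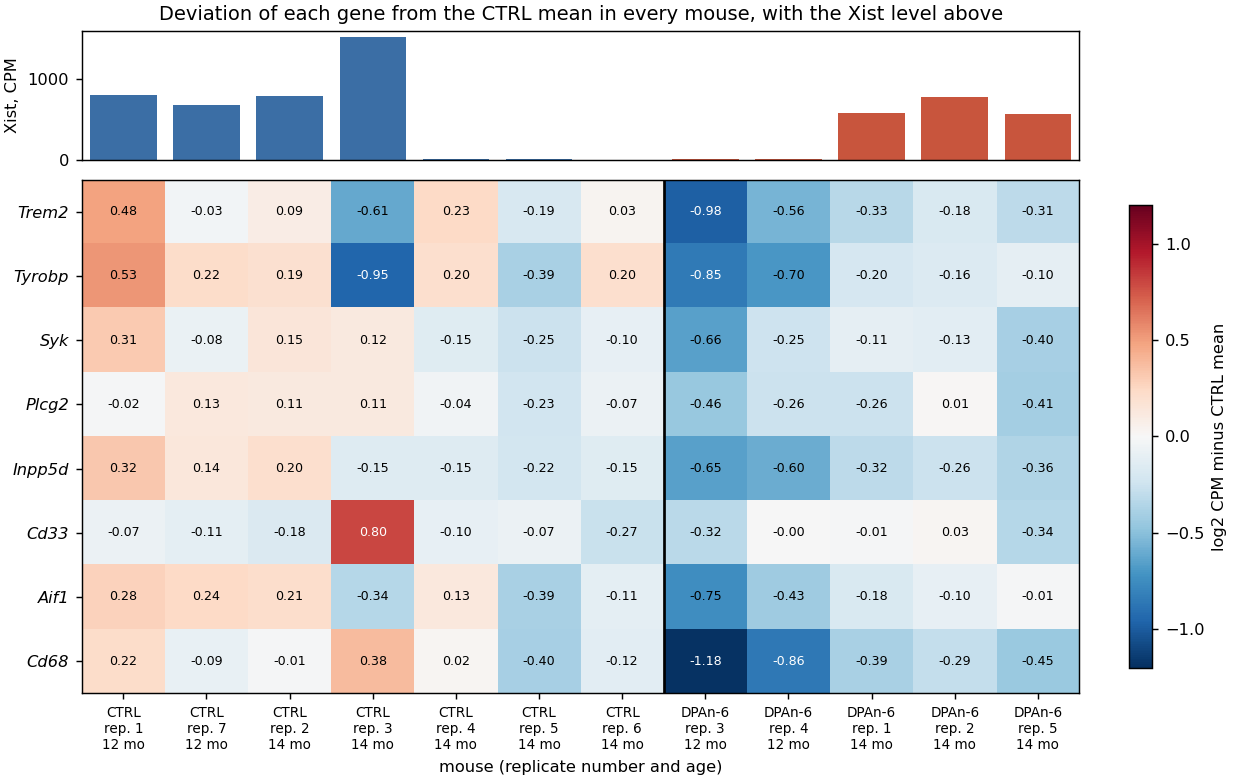
Log2 CPM of each gene minus the CTRL mean in every mouse (colour and printed value), ordered by group and age, with the Xist level of the mouse in CPM as bars above. DPAn-6 replicates 3 and 4, the 12-month mice with low Xist, hold the lowest values of Cd68 (−1.18 and −0.86), and CTRL replicate 3 holds low Tyrobp (−0.95) beside high Cd33 (0.80).

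In 4 of 5 DPAn-6 mice all 8 genes were below the CTRL mean, and in DPAn-6 replicate 2 it was 6 of 8. The share of all genes below the CTRL mean in each mouse was not computed, and the 8 genes are not independent of each other. The mean deviation over the 8 genes was −0.73 in DPAn-6 replicate 3, −0.46 in replicate 4 and between −0.30 and −0.13 in the others. Among CTRL mice it ran from −0.27 in replicate 5, in which 8 of 8 genes were below the mean of its group, to 0.26 in replicate 1.

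Within the groups, receptor and adaptor moved together. After each group was centred on its mean, Trem2 and Tyrobp had a Pearson r of 0.933 (permutation p adjusted over 28 pairs = 0.0039) and a Spearman rho of 0.881 (adjusted permutation p = 0.0113) over 12 mice. The r was 0.940 without the 2 mice farthest from the median of Trem2 (CTRL replicate 1 and DPAn-6 replicate 3) and 0.956 within the 14-month mice. Of 28 pairs, 24 had an r above 0, 10 an unadjusted and 5 an adjusted permutation p below 0.05 (shares over all gene pairs not computed). The other 4 were Tyrobp with Aif1 (r = 0.871, rho = 0.881, adjusted permutation p = 0.0059 and 0.0112), Trem2 with Aif1 (r = 0.852, rho = 0.762, 0.0081 and 0.0486), Inpp5d with Aif1 (r = 0.839, rho = 0.804, 0.0140 and 0.0268) and Syk with Cd68 (r = 0.776, rho = 0.727, 0.0339 and 0.0636). Without the 2 mice farthest out, these r were 0.890, 0.749, 0.793 and 0.604, and within the 14-month mice 0.796, 0.772, 0.656 and 0.695. The lysosomal marker and the receptor, Cd68 and Trem2, had r = 0.410 (rho = 0.469, permutation p = 0.203 and 0.144), and whether this differs from Syk with Cd68 was not tested. That weak value depended on which mice were kept. With CTRL replicate 3 left out r was 0.959, while dropping DPAn-6 replicate 3 gave 0.108. With CTRL replicate 3 kept, r was −0.105 after the 2 mice farthest out in Trem2 were dropped. It was −0.400 within the 14-month mice and −0.084 within the CTRL mice. The number of pairs past the adjusted threshold was 13 once CTRL replicate 3 was left out. With DPAn-6 replicate 3 dropped instead, this number was 3, and in the 14-month mice 0.

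**Figure D4:**
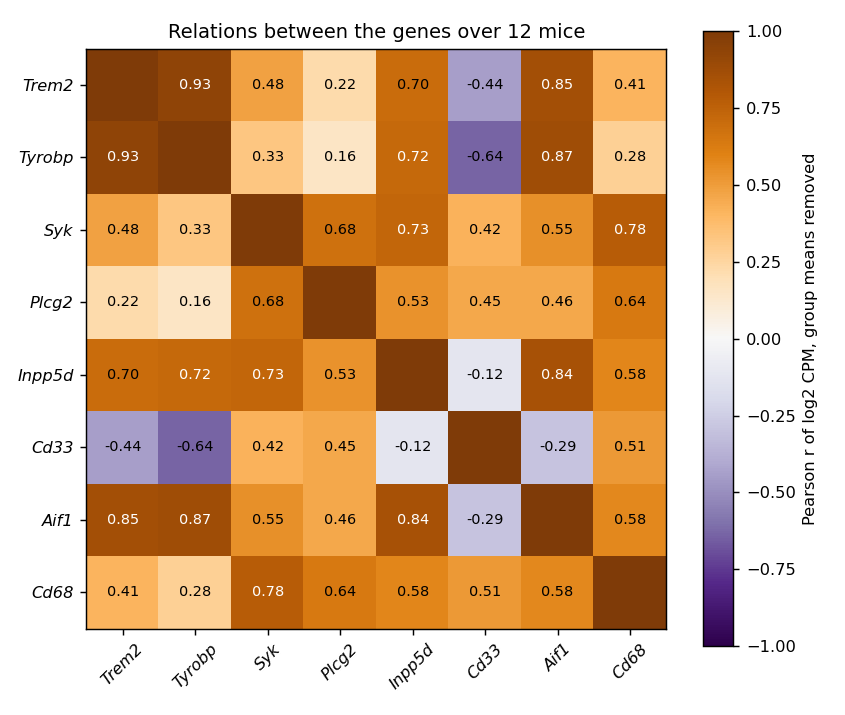
Pearson r of log2 CPM between each pair of the 8 genes over 12 mice after the mean of each group was removed, with brown for positive and purple for negative values. Trem2, Tyrobp, Inpp5d and Aif1 form a block with r from 0.70 to 0.93. In it Inpp5d with Trem2 and with Tyrobp did not pass the adjusted threshold (adjusted permutation p = 0.0552 each). Their r within the 14-month mice were 0.331 and 0.377. Cd33 has negative r with Tyrobp (−0.64) and Trem2 (−0.44), which turn to 0.085 and 0.396 without CTRL replicate 3.

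The genes most like Trem2 in this centred measure, among 10596 genes with a mean of at least 3 log2 CPM over 12 mice, were Ctsd (r = 0.97), Hvcn1 (0.96), Gusb (0.95), C1qa (0.95) and Csf1r (0.94). These encode the lysosomal proteases and hydrolases cathepsin D and beta-glucuronidase, a proton channel, a complement subunit and the receptor for the microglial survival factor. Tyrobp ranked 8. The genes most like Cd68 were Ctss (0.94), Laptm5 (0.93), Hcls1 (0.92), Aldh1l2 (0.91) and Pros1 (0.91), with Trem2 at rank 1157. These correlations are a description over 12 libraries, among them CTRL replicate 3 with its trend on length and GC.

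Around the chain, 8 lists of 84 genes were read from the same fit, of which 73 genes passed the filter, 63 with a log2 fold change below 0 and 10 above 0. For lists, lower and higher are used here for this sign of the fitted value, whether or not a test was passed. In 8 of the 63 the mean log2 CPM, which is not scaled by TMM, was higher in DPAn-6 mice (Apoe, Pik3cd, Pik3r6, Akt1, Inppl1, Dok1, Dok3 and Cblb), so that their direction depended on the scale. The median log2 fold change of the 73 genes was −0.15. At an unadjusted p below 0.05, 18 of 73 (24.7%) were lower, against 9.02% of all genes tested, and 1 was higher, against 5.51%. By the adjusted test 2 fell, where 1.14% of all genes did. These were Itpr2, an inositol trisphosphate receptor that releases calcium from stores, and Gpnmb, a glycoprotein of phagocytic cells. Itpr2 went from 5.53 ± 0.14 log2 CPM (SD, n = 7) to 5.11 ± 0.16 (SD, n = 5), a log2 fold change of −0.45 (standard error 0.09) with an adjusted p of 0.0240 by edgeR. Gpnmb went from 6.20 ± 0.40 (SD, n = 7) to 4.66 ± 0.69 (SD, n = 5), a log2 fold change of −1.49 (standard error 0.26) with an adjusted p of 0.0126 by edgeR. In both genes all 5 DPAn-6 mice were below all 7 CTRL mice.

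The Itpr2 call was lost without DPAn-6 replicate 1 (adjusted p = 0.0722 by edgeR), 3 (0.100), 4 (0.0908) or 5 (0.0630), and that of Gpnmb held with any 1 of the 12 mice left out. In the 14-month mice the adjusted p was 0.394 for Itpr2 and 0.155 for Gpnmb, and with Ttr as covariate 0.239 and 0.147. These 2 genes stood in a list of 17 scaffolds and effectors below Syk, with 14 lower and 2 higher of 16 tested (Lat was under the filter), and in a list of 16 phagocytic and lysosomal genes, with 12 lower and 4 higher. The 1 list gene that was higher at an unadjusted threshold was the adaptor Grb2 (log2 fold change 0.20, unadjusted p = 0.00733 and adjusted p = 0.148 by edgeR), named here after its value was seen.

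**Figure D5:**
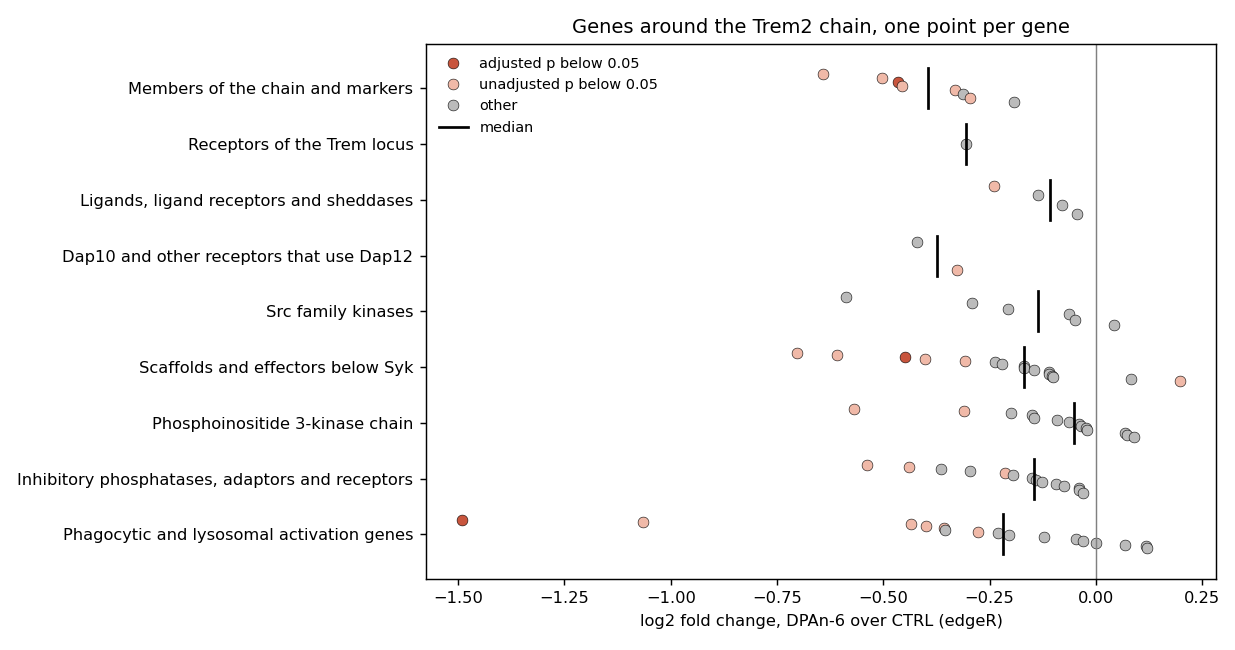
Log2 fold change, DPAn-6 over CTRL, of the 8 genes (top row) and of the genes tested in each of 8 lists around the chain, 1 point per gene, coloured by edgeR's p, with the median as a bar. Medians lie below 0 in every row, from −0.05 in the phosphoinositide 3-kinase chain to −0.39 in the 8 genes.

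The remaining 6 lists held no adjusted call by edgeR. Among 14 genes of the phosphoinositide 3-kinase chain, 11 were lower, 2 of them at an unadjusted p below 0.05, and 3 higher, with a median of −0.05, and the smallest p belonged to Pik3cg, the catalytic subunit of leukocytes (log2 fold change −0.57, adjusted p = 0.0699 by edgeR), and the adaptor Pik3ap1 (−0.31, adjusted p = 0.306). All 14 genes tested among 16 inhibitory phosphatases, adaptors and receptors had a fold change below 0, though Dok1, Dok3 and Cblb had a higher mean log2 CPM in DPAn-6 mice, with 3 at an unadjusted p below 0.05, led by the ubiquitin ligase Cbl (−0.21, adjusted p = 0.184) and the inhibitory collagen receptor Lair1 (−0.44, adjusted p = 0.185). Of the Src family kinases, which phosphorylate the adaptor, 5 of 6 were lower, 0 at an unadjusted p below 0.05, with Lyn at −0.29 (adjusted p = 0.435) and Fgr at −0.59 (adjusted p = 0.437). All 4 genes listed as ligands and sheddases had a fold change below 0 with a median of −0.11. They were led by the lipoprotein Clu (−0.24, adjusted p = 0.212 by edgeR), followed by the protease Adam17 (−0.14, adjusted p = 0.639). Apoe had a mean of 5.61 log2 CPM in CTRL and 5.63 in DPAn-6 mice. These reads were assigned to the mouse gene, which human APOE4 replaces in these mice, so the level of that ligand was not measured. The source of these reads was not tested. Of other receptors that use the same adaptor, Siglech (−0.33, adjusted p = 0.0631) and Clec5a (−0.42, adjusted p = 0.375) were tested, and of the Trem locus Treml2 alone (−0.30, adjusted p = 0.624). The other 4 genes of each of these 2 lists were under the filter.

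Markers of other cells moved with the same groups. Genes of border-associated macrophages, which also carry Trem2 chain genes such as Tyrobp, were lower in 6 of 6 tested, with 3 adjusted calls by edgeR (Mrc1, Cd163 and F13a1), and their summed level was 11.9 to 17.7 CPM in CTRL and 5.43 to 7.44 CPM in DPAn-6 mice. Disease-associated microglia genes were lower in 14 of 16, with 4 adjusted calls (Cst7, Itgax, Axl and Spp1) and a sum of 830.1 to 1102 CPM against 671.1 to 805.8 CPM. Choroid plexus genes were lower in 4 of 4 tested, 4 at an unadjusted p below 0.05 and 0 by the adjusted test, and summed to 12.8 to 1681 CPM in CTRL and 7.51 to 23.5 CPM in DPAn-6 mice. With Ttr, the main product of choroid plexus, as covariate, all 8 genes of the chain remained lower, with 5 of 8 at an unadjusted p below 0.05 by edgeR, where 4.33% of all genes were, and 0 by the adjusted test, where 0.0829% were. Oligodendrocyte genes were higher in 8 of 10, 5 at an unadjusted p below 0.05 and 0 by the adjusted test. Summed monocyte and neutrophil genes reached 2.15 to 9.99 CPM and 1.91 to 2.41 CPM. The part of these cells in the differences of the 8 genes was not tested.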

How the data were processed

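RNA-Seq was performed on poly(A)-selected RNA of the cortex of 12 mice. The authors aligned reads with STAR (version 2.5.3a in the submitters' processing notes) to GRCm38 with Ensembl genes and deposited raw counts per gene, without normalization. Which strand setting the counting used is not given in the sources used here. All 12 columns matched a sample title, and 50339 of 50563 gene identifiers were found in GENCODE M21 (GRCm38). Total counts ranged from 15208803 to 26520251. Nothing in the labels says more of replicates than 1 mouse each.

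The deposited counts were tested with R 4.3.3 and edgeR 4.0.16 (filterByExpr, TMM, glmQLFit, glmQLFTest, no covariate) with Benjamini-Hochberg adjustment over 15688 genes. Standard errors were derived from the log2 fold change and the F statistic. The study names limma-voom, which was an alternative. Log2 CPM added 0.5 to each count and was compared by two-sided exact permutation over 792 splits. Correlations used 100000 permutations within groups. Scripts ran under Python 3.11.15 with pandas 2.3.3, scipy 1.17.1 and numpy 2.4.6, and the tests were first run on simulated data. Promoters are from RefSeq (GRCm38.p6).

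The genes, lists and tests were chosen with earlier results of these data known. Named are the 8 genes, in each list around the chain every gene with an adjusted p below 0.05 or else the 2 with the smallest p, the 5 genes most like Trem2 and Cd68, and Tmem119, Xist and Ttr where a result turns on them. Marker lists of 15 cell types and states were read, and those not given in the text are in the closing section. Alternatives were DESeq2 1.42.0, limma-voom 3.58.1 with and without sample weights, other scaling, filters, pseudocounts and covariates, a block on replicate number, 14-month mice alone, removal of the trend on length and GC per library, and fits without each single mouse. Age with Xist, the median of the homeostatic markers, Xist in the age interaction and its left-out mice were added after the data were seen.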

Additional observations from a re-analysis of the deposited data

Results flagged for a closer look

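Cd33 in CTRL replicate 3 had 4.98 log2 CPM, with the other 6 CTRL mice between 3.91 and 4.12. Its gap to the next mouse was 0.810 of the range of the group, above the limit at which a single value among 7 is held to stand apart. Of 16 groups examined (8 genes in CTRL and DPAn-6 mice) it was the 1 value past its limit. Chance alone takes about 1 in 20 groups past such a limit, so 1 of 16 lies near that share. The groups share mice and are not independent. In the same library Tyrobp was at 4.90, the lowest of all mice, and the library had the largest trend on length and GC content. With that trend removed, Cd33 in CTRL replicate 3 was at 4.48 and Tyrobp at 5.43. The cause of the high Cd33 value was not tested.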

How the results depend on the processing

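All 8 genes had a log2 fold change below 0 in 26 of 26 alternatives. The count of members with an adjusted p below 0.05, 1 of 8 as reported, was 0 by limma-voom, without TMM, with Ttr or with age as covariate and in 14-month mice, 2 by DESeq2, with Xist and with age and Xist as covariates, and 4 by limma-voom with sample weights. With each mouse left out it ranged from 0 to 4. Without a filter on low counts the 1 call was Cd68 (adjusted p = 0.0295 by edgeR) in place of Inpp5d (0.0550). The count of members with an unadjusted p below 0.05, 6 as reported, was 1 in 14-month mice and 4 to 7 with a mouse left out, and that of list genes, 19 as reported, was 6 in 14-month mice and 14 to 22 with a mouse left out. Over all genes the 243 adjusted calls became 9 in 14-month mice, 696 by DESeq2, 17 with Ttr, 540 with the length and GC trend removed, 1267 with sample weights, and 64 (without DPAn-6 replicate 3) to 953 (without CTRL replicate 3) with a mouse left out. Replicate numbers did not pair the mice: the correlation of deviations between mice of the same number was 0.0911, 0.0157, −0.125, 0.220 and −0.0666. With the replicate number as a block, 0 members and 79 genes had an adjusted p below 0.05, and 0 members with the block and the trend removed together.

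The 5 exact permutation calls became 0 in 14-month mice and 3 to 5 with a mouse left out. Differences in log2 CPM changed sign for Cd33 without CTRL replicate 3 (0.0036, the other left-out mice giving down to −0.17) and for Aif1 in 14-month mice (0.0050). Of the levels relative to homeostatic markers, 1 passed as reported (Cd68, lower in DPAn-6 mice) and 3 with the median of the markers. Cd68 was not among these 3, which were higher in DPAn-6 mice relative to that median. The count was 0 against disease-associated genes or in 14-month mice, and 0 to 3 with a mouse left out. With the median, signs turned for Trem2 (0.041), Tyrobp (0.11), Syk (0.21) and Inpp5d (0.077). Against disease-associated genes they turned for Tyrobp (0.057), Syk (0.15) and Inpp5d (0.022), and in 14-month mice for Trem2 (0.046), Tyrobp (0.23), Syk (0.067) and Inpp5d (0.011). With a mouse left out, 3 genes near 0 had values of either sign: Syk from −0.064 to 0.031, Plcg2 from −0.020 to 0.052 and Aif1 from −0.071 to 0.070. The 5 pairs past the adjusted threshold became 0 in 14-month mice and 3 to 13 with a mouse left out. The 5 age interactions at an unadjusted p became 3 with Xist and 2 to 5 with a mouse left out. The cause of these changes was not tested, except that 14-month mice are fewer.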

Other observations

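Markers of the other cell types were read from the same fit by edgeR, and lower or higher refers to the sign of the log2 fold change. Genes of pericytes and smooth muscle were lower in 7 of 7 (summed level 169.9 to 233.9 CPM in CTRL and 156.3 to 190.2 CPM in DPAn-6 mice) with 1 adjusted call, Myh11, and those of meningeal fibroblasts in 6 of 6 (111.8 to 223.0 and 67.7 to 136.5 CPM) with 3, Lum, Col1a2 and Igf2. Astrocyte genes were lower in 9 of 10 with no adjusted call and 4 at an unadjusted p below 0.05. Inhibitory neuron genes were higher in 8 of 8 with no adjusted call and 2 at an unadjusted p below 0.05, and excitatory neuron genes in 6 of 8 with no adjusted call. At an unadjusted p below 0.05, 1 excitatory gene was higher (Neurod2) and 1 lower (Camk2a). Endothelial genes were higher in 3 and lower in 5 of 8, oligodendrocyte precursor genes lower in 4 of 5 and red blood cell genes lower in 5 of 5, each with no adjusted call, and at an unadjusted p below 0.05 with 2, 1 and 0 genes. Of the homeostatic microglia list, 2 genes were higher, Slc2a5 with a log2 fold change of 1.06 (adjusted p = 0.200 by edgeR) and Rtn4rl1 with 0.085 (adjusted p = 0.614 by edgeR), and like Neurod2 and Camk2a they are named after their values were seen.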
